A study of Mus musculus with 6 samples.

Results

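Gapdh was measured on 6 arrays of the heart, whole blood and plasma of mice with isoproterenol-induced heart failure (HF) and of control mice, and it is described here as a reference gene. Its probes were those that the array annotation assigns to the Gapdh transcript, and 2 probes met this rule, for 1 gene of the 3579 genes that carry a name here. One of them is printed at 20 places on each array and is called the many-spot probe, and the other is printed at 1 place and is called the single-spot probe.

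All mice were male C57BL/6J mice. HF mice received isoproterenol, a β-adrenergic agonist, under the skin for 1 week, and control mice received saline in the same way. For each condition the RNA of 5 mice was mixed and hybridised to 1 array in a single colour, so that control heart, HF heart, control whole blood, HF whole blood, control plasma and HF plasma had 1 array each. Isoproterenol given in this way models an acute injury of the heart muscle, whole blood was obtained by removing the eyeballs, and plasma was spun and filtered before extraction. With 1 array per condition, no difference within a tissue or between tissues had a replicate check. Only a difference common to the 3 tissues could be tested, against its spread over the tissues and not over mice. The errors given below are the error that the scanner software assigns to the signal, about 10% per Gapdh spot, and the spread over the 20 spots, and both measure the array and not the mice.

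Gapdh encodes glyceraldehyde-3-phosphate dehydrogenase, the glycolytic enzyme that oxidises glyceraldehyde-3-phosphate and forms NADH. Heart muscle, which contracts without pause, holds the enzyme in large amounts, and red cells depend on glycolysis for their ATP. Because most cells transcribe the gene, its RNA is often taken as the internal standard of PCR, and the study divided its PCR values by it. A reference gene serves this purpose where its level per amount of RNA is alike in the samples compared, which is the question that these arrays bear on. The mouse genome holds many processed pseudogenes of Gapdh, and which of their transcripts the probes could bind was not tested.

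Both probes gave a clear signal on every array. On all 6 arrays the single-spot probe and all 20 spots of the many-spot probe were flagged as well above background, none was saturated, and 1 spot of the many-spot probe, in control heart, was flagged as an outlier. The processed signal below is an intensity with the background subtracted and without scaling between arrays, and it is given for the many-spot probe as the lowest, median and highest of 20 spots. In control heart it was 108282, 146823 and 171040, and the flagged spot was the lowest. In HF heart it was 99460, 106843 and 123316. Apart from the flagged spot, the lowest control spot was 132906, so that all other spots of control heart lay above every spot of HF heart.

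In control whole blood the many-spot probe read 9532, 11744 and 13037. In HF whole blood it read 11170, 12016 and 14461. The spots of both arrays overlapped over most of their range. In control plasma it read 6837, 9422 and 11204. In HF plasma it read 3287, 4372 and 6028, and no spot of HF plasma reached the lowest spot of control plasma. By processed signal the many-spot probe ranked 20th of the 59729 probes in control heart and 22nd in HF heart, but only 1091st and 266th in control and HF whole blood and 989th and 850th in control and HF plasma.

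The single-spot probe read 51558 in control heart and 22399 in HF heart. In whole blood it read 482 in control and 1182 in HF. In plasma it read 286 in control and 212 in HF. Its rank by signal was 353rd and 741st in control and HF heart, 5558th and 2339th in control and HF whole blood, and 6212th and 5394th in control and HF plasma. Both probes were thus brightest in the hearts, and the single-spot probe separated HF from control whole blood, which the many-spot probe did not do at this scale.

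**Figure D1:**
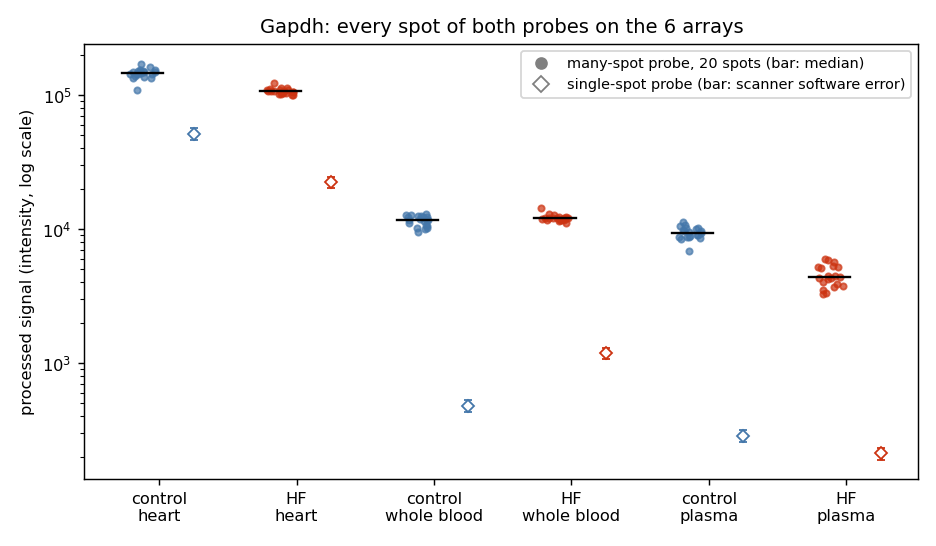
Processed signal (intensity, log scale) of each spot of the 2 Gapdh probes on the 6 arrays. Dots are the 20 spots of the many-spot probe with their median as a bar, diamonds are the single spot of the other probe with the scanner software error, blue is control and red is HF. Both probes were brightest in heart, and the spots of control and HF whole blood overlapped for the many-spot probe only.

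A difference between 2 arrays depends on how they are put on 1 scale. Quantile normalization, which the study's methods name, gives all arrays the same distribution of signals, and scaling to the 75th percentile subtracts 1 number per array. The levels at that percentile were 7.13 and 6.21 on the log2 scale in control and HF heart, 6.03 and 5.45 in control and HF whole blood, and 5.61 and 4.88 in control and HF plasma. The HF array was therefore the dimmer one in each tissue.

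In heart, the many-spot probe was level between HF and control after quantile normalization, with log2 levels of 17.02 and 17.07. The difference was -0.05 on the log2 scale, with a scanner error of 0.20 and a standard error over spots of 0.03. After scaling to the 75th percentile it was 0.48, and without scaling it was -0.44. The single-spot probe was lower in HF heart in each of these scalings, by differences of -1.07 after quantile normalization, -0.29 after scaling to the 75th percentile and -1.20 without scaling. Its log2 levels after quantile normalization were 13.65 in HF and 14.72 in control. The first of these differences exceeded 2-fold and its scanner error of 0.20. Beside it, the 20065 probes that passed detection in both hearts held 12.9% that were lower in HF by 2-fold or more and 13.9% that were higher, so such a difference was common on these arrays.

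The 2 probes of the gene therefore disagreed in heart. The HF minus control difference of the many-spot probe was 1.02 above that of the single-spot probe on the log2 scale after quantile normalization, and 0.76 above it after scaling to the 75th percentile. The scanner error of this difference of differences was 0.29.

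In whole blood, both probes were higher in HF after quantile normalization. The many-spot probe went from 12.94 to 15.05 on the log2 scale, a difference of 2.11 or 4.31-fold, with a scanner error of 0.20 and a standard error over spots of 0.04. The single-spot probe went from 8.86 to 11.19, a difference of 2.33 or 5.03-fold, with a scanner error of 0.21. The 11938 probes that passed detection in both whole blood samples held 21.4% that were higher in HF by 2-fold or more and 26.8% that were lower. For the many-spot probe the size of the difference rested on the scaling, since it was 0.66 after scaling to the 75th percentile and 0.07 without scaling. For the single-spot probe it was 1.88 and 1.29, which is over 2-fold in every case. After scaling to the 75th percentile the probes disagreed, with the many-spot probe 1.22 below the single-spot probe, at a scanner error of 0.29.

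In plasma, neither probe reached a 2-fold difference after quantile normalization. The many-spot probe had a log2 level of 13.13 in control and 13.41 in HF, a difference of 0.28 with a scanner error of 0.20 and a standard error over spots of 0.07. It was -0.34 after scaling to the 75th percentile and -1.07 without scaling, so that the sign followed the scaling. The single-spot probe differed by 0.40 after quantile normalization, 0.30 after scaling to the 75th percentile and -0.43 without scaling. The 12377 probes that passed detection in both plasma samples held 32.1% that were higher in HF by 2-fold or more and 25.6% that were lower.

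**Figure D2:**
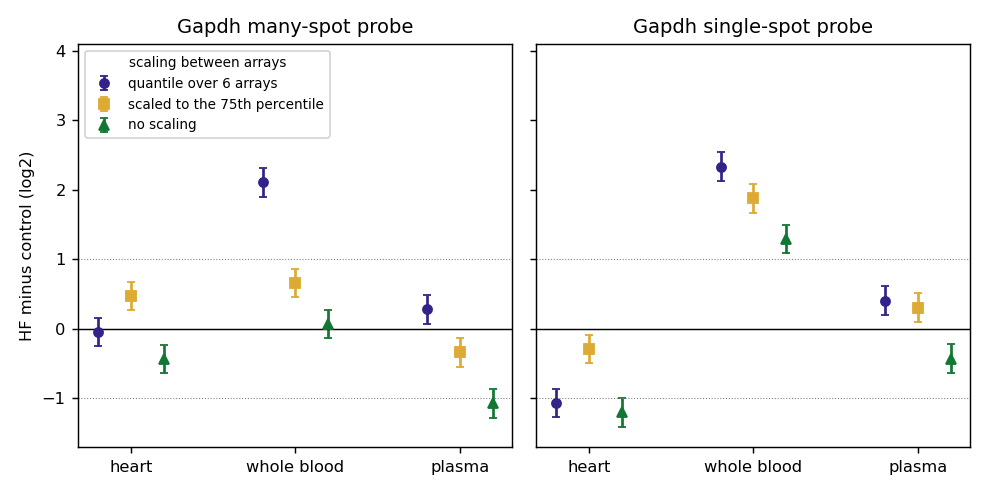
HF minus control on the log2 scale for the many-spot probe (left) and the single-spot probe (right) in 3 tissues, under quantile normalization, scaling to the 75th percentile and no scaling. Bars are the scanner software error and dotted lines mark 2-fold. For the many-spot probe in whole blood the difference ran from 0.07 without scaling to 2.11 after quantile normalization, and in heart and plasma its sign changed with the scaling.

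Both heart arrays shared 1 slide with the blood and plasma of HF mice, and the blood and plasma of control mice shared another. In whole blood and plasma, slide and HF cannot be told apart. A single HF difference shared by the 3 tissues was fitted with limma across all 59729 probes, with tissue as a block and 2 residual degrees of freedom. It was 0.78 on the log2 scale with a standard error of 0.57 for the many-spot probe and 0.55 with a standard error of 0.81 for the single-spot probe, with limma adjusted p of 0.816 and 0.875. Over the 3 pairs, the exact two-sided permutation of signs gave p = 0.5 and p = 0.75, where 0.25 is the smallest p it allows. In this limma fit 0 probes passed an adjusted p of 0.05, and 2303 probes (3.86%) had an unadjusted p below 0.05. In whole blood, fewer cells of a type and less RNA per cell also cannot be told apart in these mixed samples. Plasma was spun and filtered, and the source of its RNA was not tested.

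Cell type markers also differed between control and HF whole blood, but not all in the direction of Gapdh. After quantile normalization the summed levels of cardiomyocyte and neutrophil markers were higher in HF, as both Gapdh probes were. So were the sums of the 5 fibroblast markers (10.6 to 12.2) and of the 2 genes listed for skeletal muscle (7.54 to 10.2). The 1 T cell marker went from 9.30 to 9.98. Those of B cell and platelet markers were lower, and that of erythroid markers was nearly level. Of 6 cardiomyocyte markers with a name here, 1 passed background in the whole blood of control mice, and all 6 did in that of HF mice. The marker in control whole blood was Myh6, the heavy chain of cardiac myosin, whose probe had a log2 signal of 12.3 and 11.6 in the hearts but of 13.2 to 15.2 in blood and plasma without scaling, and thus goes against its use as a heart marker on these arrays. Without Myh6, the summed log2 level of the other 5 markers after quantile normalization was 6.61 in control whole blood, where none was above background, and 16.0 in HF whole blood, where all 5 were, against 16.8 and 18.1 in control and HF heart. With Myh6 the sums in whole blood were 14.5 and 16.5. Nppa, which encodes atrial natriuretic peptide, went from a log2 signal of 3.61, not well above background, to 14.1 without scaling. In plasma 1 of these 5 markers was above background in control, Tnnt2 (cardiac troponin T), and 1 in HF, Nppb (brain natriuretic peptide), at sums of 5.76 and 7.21. With Myh6, which alone makes up most of the sum, both plasma sums were 14.4.

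The 4 neutrophil markers with a name went in sum from 9.87 to 14.7 in whole blood and from 10.2 to 13.9 in plasma. The 4 erythroid markers, among them the globin genes, stood at 18.9 and 18.8 in control and HF whole blood, and at 18.8 and 13.5 in control and HF plasma. The 2 B cell markers went in sum from 11.4 to 7.05 in whole blood and from 11.3 to 6.63 in plasma, and the 2 platelet markers from 12.8 to 11.6 and from 13.3 to 7.67. The part of any of these cells in the Gapdh levels was not tested. On both heart arrays 6 of 6 cardiomyocyte markers were above background.

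Between tissues, Gapdh was highest in heart with either probe. In control mice the many-spot probe was higher in heart than in whole blood by 4.12 on the log2 scale, or 17.4-fold, and higher in heart than in plasma by 3.94, or 15.4-fold, after quantile normalization. In HF mice these differences were 1.97 or 3.91-fold, and 3.61 or 12.2-fold. Scaling to the 75th percentile gave 2.56 and 2.44 in control mice and 2.38 and 3.25 in HF mice. The single-spot probe gave wider differences after quantile normalization, of 5.86 or 58.1-fold and 6.18 or 72.3-fold in control mice, and of 2.46 or 5.50-fold and 4.70 or 26.1-fold in HF mice. The direction was the same for both probes under each scaling, but the size was not. Control heart lay on another slide than the blood and plasma of control mice, while the 3 HF arrays shared a slide, so that the control differences between heart and the other tissues cross slides and those of HF mice do not.

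Whole blood and plasma of control mice differed little, by -0.18 on the log2 scale with the many-spot probe and 0.31 with the single-spot probe, whole blood minus plasma. In HF mice whole blood was higher than plasma by 1.64, or 3.13-fold, with the many-spot probe and by 2.24, or 4.73-fold, with the single-spot probe. In order, the many-spot probe ran from control heart through HF heart, HF whole blood, HF plasma and control plasma to control whole blood after quantile normalization. The hearts did not differ from each other beyond the scanner error, nor did control plasma from control whole blood. For the single-spot probe the order was control heart, HF heart, HF whole blood, HF plasma, control whole blood and control plasma. HF plasma and control whole blood lay within the scanner error of each other.

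The 20 spots of the many-spot probe show how well 1 array measures 1 transcript. Their standard deviation on the log2 scale was 0.13 and 0.07 in control and HF heart, 0.14 and 0.08 in control and HF whole blood, and 0.16 and 0.27 in control and HF plasma. Only HF plasma spread clearly beyond the 0.14 that the scanner software assigns to a spot.

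The place of a spot on the array mattered in plasma. Of the 20 spots, 13 lie left of the middle of the array and 7 lie right of it. The left spots were brighter by 0.39 on the log2 scale in HF plasma and by 0.23 in control plasma. They differed by 0.030 and -0.010 in control and HF heart, and by -0.095 and 0.065 in control and HF whole blood. In control whole blood the 5 spots nearest the left edge had a mean of 13.30 against 13.56 for the other 15 spots. HF plasma was also the array on which the most negative-control spots, 12.4% of 1200, were flagged above background, against 0.5% to 4.33% on the other arrays. The part of position in the differences between arrays was not tested beyond the comparison of spots at the same place.

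**Figure D3:**
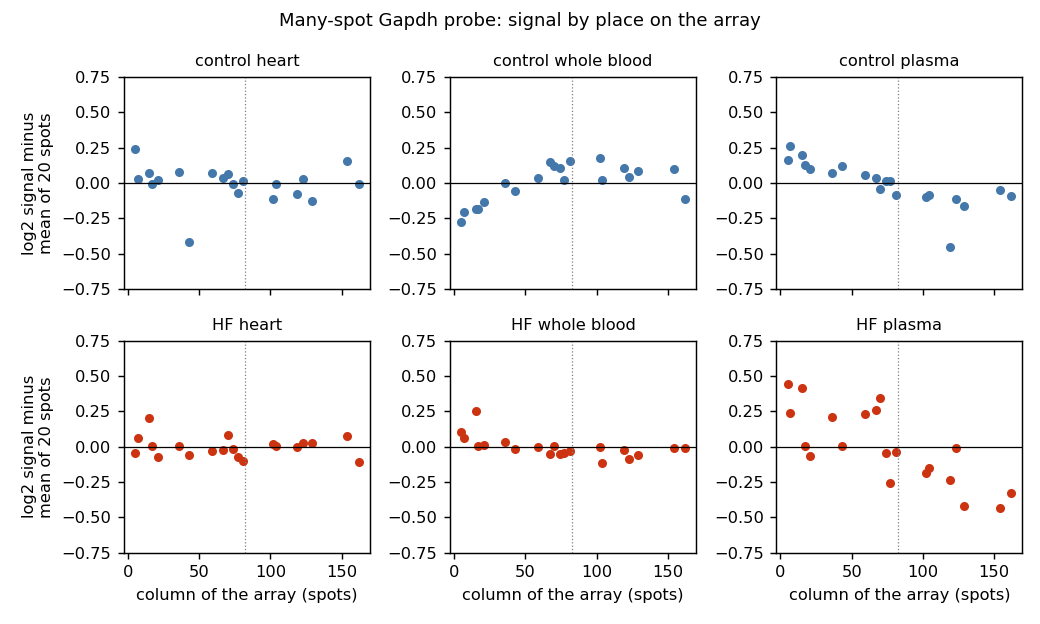
Log2 signal of each of the 20 spots of the many-spot Gapdh probe, minus their mean, against the column of the array on which the spot lies, for the 6 arrays (blue control, red HF). The dotted line marks the middle of the array. In HF plasma the signal fell from left to right, and the left spots were on average 0.39 above the right ones.

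Pairing spots by place gave the same picture as the means. Without scaling, HF was below control at all 20 places in heart, with differences from -0.72 to -0.08 on the log2 scale. In plasma it was below at all 20 places too, from -1.46 to -0.68. In whole blood 10 places were above and 10 below, from -0.13 to 0.51 with a median of -0.02.

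Gapdh is 1 of 15 genes that the maker printed 20 times on each array, most of them used as reference genes elsewhere. The others are Actb (cytoplasmic actin), B2m (the light chain of MHC class I), G6pd2 (a glucose-6-phosphate dehydrogenase), Gk (glycerol kinase), Gusb (β-glucuronidase), Hprt (purine salvage), Hsp90ab1 (a chaperone), Ldhal6b (a lactate dehydrogenase-like protein), Nono (an RNA-binding protein of paraspeckles), Ppia (cyclophilin A), Rpl13a (a ribosomal protein), Tbp (the TATA-binding protein), Tfrc (the transferrin receptor) and Tuba1b (an α-tubulin). Ldhal6b was above background on none of the 6 arrays.

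Compared with those of the panel genes above background on the same array, the spots of Gapdh were more spread in heart. In control heart, 2 of 13 other genes had a larger standard deviation than Gapdh, and their median was 0.06. In HF heart it was also 2 of 13, with a median of 0.05. In control whole blood 10 of 11 were more spread than Gapdh, and their median was 0.16. In HF plasma 3 of 9 were more spread, with a median of 0.19.

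In heart, the Gapdh difference without scaling lay among those of the other panel genes. The difference of -0.44 compares with a median of -0.27 over 13 other genes and a range from -1.45 for Tfrc to 0.62 for Tuba1b, and 6 of the 13 were below Gapdh. Actb had 0.08, B2m -0.47, Hprt -0.62 and Ppia -0.27. After quantile normalization the many-spot probe, at -0.05, had the smallest difference in size of the 14 genes, and the median of the other 13 was 0.36. This place was not firm. Quantile normalization does not shift bright and dim probes by the same number. G6pd2 differed by -0.50 without scaling, near the -0.44 of Gapdh, but by 0.36 after quantile normalization. Its log2 signal was 7.08 and 6.58 in control and HF heart, against 17.1 and 16.7 for Gapdh. With the outlier spot left out the many-spot probe had -0.15, beside 0.10 for Gk and -0.10 for Hprt with all spots. After scaling to the 75th percentile 5 of the 13 were smaller in size than Gapdh. The single-spot probe had -1.07 after quantile normalization.

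In whole blood, Gapdh stood apart from most of the panel. Without scaling it differed by 0.07, while the median of 10 other genes was -2.17. Nono had -5.54, B2m -3.69, Actb -3.14, Tfrc -3.13 and Ppia -3.08. Hsp90ab1, at 0.70, and G6pd2, at 0.16, were the only panel genes above background on both arrays that lay above Gapdh. After quantile normalization Gapdh was above all 10, the highest of which was Hsp90ab1 at 1.84. In the control whole blood and plasma samples nearly all spots of Ppia were flagged as outliers, although their signal was well above background.

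In plasma, Gapdh differed by -1.07 without scaling, and the median of 9 other genes was -3.56. B2m had -7.65, Actb -5.04 and Ppia -5.01. G6pd2 at 0.49 and Gk at -0.84 lay above Gapdh. Gapdh was 2.25 above the panel median in whole blood and 2.49 above it in plasma on the log2 scale, against -0.17 in heart. Scaling to the 75th percentile cannot change these gaps, since it subtracts 1 number per array. After quantile normalization they were 2.99 in whole blood, 3.11 in plasma and -0.41 in heart.

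**Figure D4:**
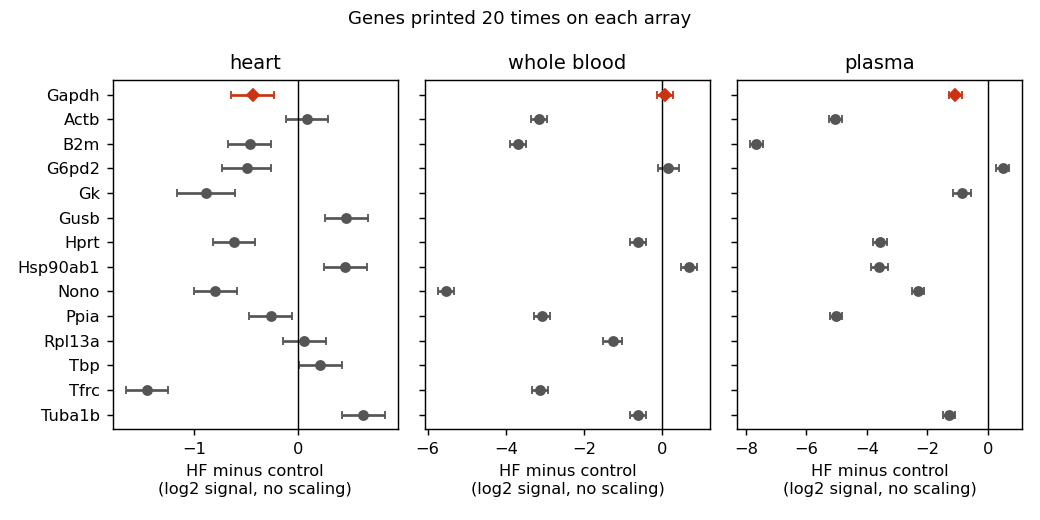
HF minus control on the log2 signal without scaling for Gapdh (red diamond) and the other genes printed 20 times (grey), where the gene was above background on both arrays of the tissue. Bars are the scanner software error, and the horizontal axes differ between tissues. Gapdh lay within the range of the others in heart, and above 8 of 10 in whole blood and 7 of 9 in plasma.

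A usual measure of a reference gene is how steady its ratio to other candidates is. Over the 9 panel genes above background on all 6 arrays, the mean standard deviation of the log2 ratio of Gapdh to each of the other genes was 1.97, the third smallest. Ppia had 1.83, Tuba1b 1.95 and Nono, the largest, 3.43. The value of Ppia includes the control whole blood and plasma arrays, where nearly all its spots carried an outlier flag. On the 2 heart arrays alone Gapdh and B2m had 0.29 and G6pd2 0.30, the lowest values of these 9 genes. Over all 14 panel genes above background in both hearts, Gapdh and Ppia had 0.367, followed by B2m with 0.370. With 2 arrays this measure depends only on the HF minus control differences without scaling. It thus restates how near a gene lies to the middle of the panel. For Gapdh only the many-spot probe entered. On the 4 blood and plasma arrays Gapdh had 1.73, the fifth of 9, and Hprt had the smallest at 1.51. The ratio is free of scaling by a single number per array, but with 6 mixed samples these values describe the arrays only. Without scaling, the range over the 6 arrays was 5.03 for Gapdh, 0.51 for G6pd2 and 8.25 for Hsp90ab1 on the log2 scale, and after quantile normalization it was 4.12, 2.45 and 6.35. The log2 signal of G6pd2 was only 6.58 to 7.10, against 12.1 to 17.1 for Gapdh. Hsp90ab1 was lowest in HF plasma, where the standard deviation over its spots was 1.75.

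Dividing each array by its own Gapdh level shifts all its probes by 1 number, and the counts of differing probes moved with that number. In heart, 9.28% of the probes detected on both arrays (1862 probes) were at least 2-fold higher in HF after scaling to the many-spot probe, and 24.8% (4974 probes) were at least 2-fold lower. Quantile normalization gave 2789 and 2588 probes on the same 20065, and the 75th percentile gave 3940 and 2407. With the single-spot probe, which shifts every probe by a further 0.76 in heart, the counts were 5965 higher and 1354 lower.

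In whole blood, the many-spot probe gave 8.38% higher (1001 probes) and 50.1% lower (5984 probes) in HF. Quantile normalization gave 2558 and 3196, and the 75th percentile 1978 and 3891. The single-spot probe gave 241 higher and 9719 lower. In plasma, the many-spot probe gave 35.5% higher (4394 probes) and 22.1% lower (2739 probes), against 3974 and 3168 after quantile normalization. The single-spot probe gave 2976 and 3901. These changes in balance follow from the HF minus control difference of the Gapdh probe used, set against the other scalings. They say nothing further about the other probes.

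**Figure D5:**
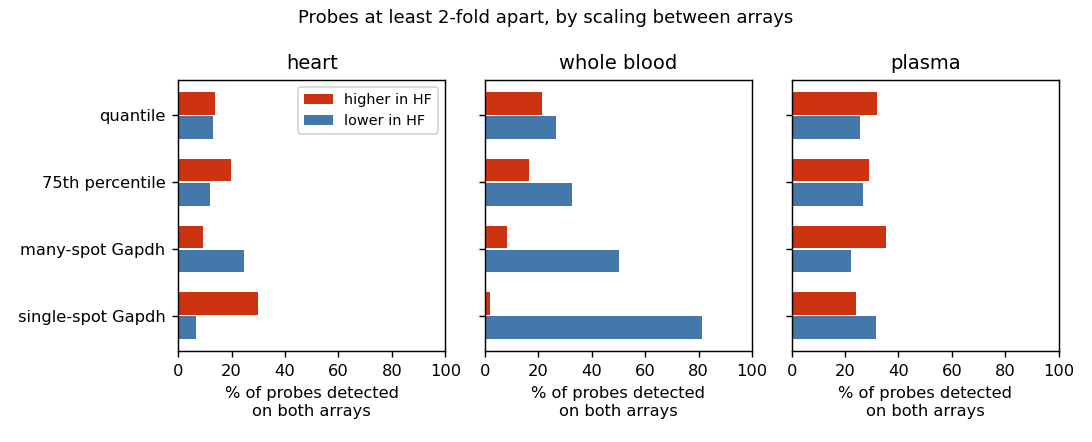
Percent of the probes detected on both arrays of a tissue that were at least 2-fold higher (red) or lower (blue) in HF, after quantile normalization, scaling to the 75th percentile, and scaling to each Gapdh probe. In heart 24.8% were lower with the many-spot probe, and the larger share was higher with the single-spot probe.

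Other genes of glycolysis were counted in the same way. Of 33 gene symbols of the pathway, from glucose transporters to lactate dehydrogenase and with Gapdh itself left out, 10 carry a name here, and all 10 were detected on both heart arrays. After quantile normalization 1 was at least 2-fold higher in HF and 4 were at least 2-fold lower, beside 13.9% and 12.9% of all probes detected, and the median was -0.53 beside 0.02. After scaling to the 75th percentile Eno3, at -0.97, was no longer among them and 3 were lower. The higher one was Bpgm, which makes 2,3-bisphosphoglycerate and is abundant in red cells, at 2.61. The lower ones were Aldoa (aldolase) at -1.62, Pfkm (muscle phosphofructokinase) at -1.57, Pklr (the pyruvate kinase of liver and red cells) at -1.56 and Eno3 (muscle enolase) at -1.23. Pgk1, the enzyme that follows Gapdh in the pathway, differed by -0.29, and Tpi1, which precedes it, by 0.47.

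Cell type markers differed between the same 2 hearts. After quantile normalization the 2 genes listed for skeletal muscle went in sum from a log2 level of 15.7 in control to 13.0 in HF. Acta1 (skeletal actin) went from 15.6 to 12.6 and Ckm (muscle creatine kinase) from 12.2 to 10.7. Whether skeletal muscle or heart muscle gave this signal was not tested. The 4 neutrophil markers went from 8.33 to 11.6, the 5 fibroblast markers from 13.2 to 14.6 and the 1 endothelial marker from 8.18 to 10.2. Their part in the levels of the glycolysis genes was not tested.

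In whole blood 4 glycolysis genes were detected on both arrays, and 2 were at least 2-fold lower in HF, Pfkfb2 (a regulator of phosphofructokinase) at -3.39 and Pklr at -3.33, beside 26.8% of all probes detected there. Pgk1 differed by 0.95. In plasma 5 were detected, and 2 were at least 2-fold higher, Tpi1 at 2.04 and Aldoa at 1.28, while Pgk1 was lower at -1.59, beside 32.1% of all probes higher and 25.6% lower. The medians were -1.99 in whole blood and -0.66 in plasma, beside -0.13 and 0.21 over all probes detected in these tissues. These medians rest on the few genes that passed the filter. Without the detection filter all 10 genes counted. In whole blood 3 were then higher and 3 lower with a median of 0.15, and in plasma 4 and 4 with a median of -0.78.

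Among 13 other common reference genes with a name here, of 21 symbols, 12 were detected on both heart arrays. Actb, B2m, Gusb, Hprt, Ppia, Rpl13a, Tbp and Tfrc are also among the genes printed 20 times, and Pgk1 is also in the glycolysis list. The list is therefore not a separate line of evidence from those above. Eef1a1 (a translation elongation factor), at 1.004, was higher by 2-fold or more in the HF heart and Tfrc, at -1.01, was lower, which is 1 of 12 each way beside 13.9% and 12.9% of all probes. The other 10 lay between these, among them Hprt at -0.10, Rplp0 (a ribosomal protein) at 0.37, Tbp at 0.84 and Gusb at 0.99. Where 2 probes of a gene were detected their mean was taken, and Actb had 0.67, B2m -0.22, Ppia 0.35 and Rpl13a 0.62. The median of the list was 0.36. After scaling to the 75th percentile 4 were at least 2-fold higher and 0 lower.

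In whole blood 9 reference genes were detected on both arrays. Rplp0 at -3.12, Tfrc at -1.85 and Actb at -1.11 were at least 2-fold lower in HF and 0 were higher, with a list median of -0.83. Over all probes 26.8% were lower and 21.4% higher, which is near the 3 of 9 lower. B2m had -0.83, Rpl13a -0.84, Hprt 0.20 and Polr2a (the large subunit of RNA polymerase II) -0.15. All 9, Pgk1 at 0.95 included, lay below both Gapdh probes. In plasma 6 were detected, among them B2m at -5.72, Actb at -3.38, Hprt at -2.83 and Pgk1 at -1.59 below control and Polr2a at 1.05 above it, and a median of -2.59. That is 5 of 6 lower and 1 of 6 higher, beside 25.6% and 32.1% of all probes. Both Gapdh probes, at 0.28 and 0.40, lay between these values.

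Likeness over the 6 arrays was taken as Pearson's r of the quantile normalized log2 level, over 1497 named probes detected on all arrays. The 2 Gapdh probes had an r of 0.989 with each other. The genes most like the many-spot probe were Mpv17 (a mitochondrial membrane protein, r = 0.997), Jup (plakoglobin of cell junctions, 0.992), Zfp787 (a zinc finger protein, 0.991), Lgals1 (galectin-1, 0.990) and Psmc1 (a proteasome subunit, 0.988). Those most like the single-spot probe were Jup (0.997), Ndufv3 (a subunit of respiratory complex I, 0.988), Zfp787 (0.985), Mpv17 (0.984) and Dmwd (a WD repeat protein, 0.981). All points share the normalization, and the gap between heart and the other tissues spans most of the range, so r is a description only. Jup differed by -1.28 in heart, as the single-spot probe did with -1.07, while Mpv17 differed by 0.13 and the many-spot probe by -0.05. In whole blood Mpv17 differed by 2.53 and Jup by 3.18.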

How the data were processed

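Total RNA of heart, whole blood and plasma was measured on Arraystar mouse LncRNA arrays in 1 colour (Cy3), per the labels and methods after random-primed labelling of RNA freed of rRNA, with the RNA of 5 mice mixed per array. The methods also describe blood and plasma drawn from more mice for extraction. The authors deposited scanner files from Agilent Feature Extraction 11.0.1.1, in which the processed signal is an intensity per spot with the background subtracted and no normalization between arrays. The series-wide table that the authors deposited was compared with these intensity values, and 0 spots differed at a relative tolerance of 1e-05. The flags for background, saturation and outliers were those of the deposited files.

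Without the control spots, the mean log2 signal of each probe was formed over its spots, and 59729 probes were quantile normalized over the 6 arrays, as the methods name. A probe was detected if most of its spots were well above background and most were free of outlier flags (between 25.0% and 47.3% of probes on an array). For Gapdh and the other genes printed 20 times, above background refers to the first flag alone. The number of arrays limits the precision, and the steps were tested on simulated data. Names came from the study's mRNA table, of which 4093 probes were held, and for 116 probes from RefSeq accessions. Gene and marker lists and members were chosen with earlier results of these data known, and the 15 genes printed 20 times were recognised after the files were opened. Named genes were Gapdh, every reference gene except for some values that are not reported here, the 3 largest rises and falls of each list, and the 5 probes most like each Gapdh probe; the other genes named (the genes printed 20 times, Myh6 and Nppa, and Pgk1 and Tpi1 in heart) were named for their place in a list. Python 3.11.15, numpy 2.4.6, pandas 2.3.3 and R 4.3.3 with limma 3.58.1 (normexp, and lmFit and eBayes for the difference common to the tissues) were used. Alternatives were other scalings, background correction, spot summaries, filters and a 4-fold threshold.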

Additional observations from a re-analysis of the deposited data

Results flagged for a closer look

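With 1 array per condition, the single-spot Gapdh probe moved in opposite directions in 2 pairs of tissues by more than its scanner error. It was at -1.07 on the log2 scale in HF minus control heart and at 2.33 in whole blood. It was at -1.07 in heart and at 0.40 in plasma. The difference between tissues was not tested. Without scaling between arrays the plasma value was -0.43, so that heart and plasma then lay on the same side.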

How the results depend on the processing

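Taking the median over spots, or leaving out the outlier spot, moved none of the Gapdh differences by more than its error. Scaling to the 75th percentile changed the many-spot HF minus control value to 0.48 in heart, 0.66 in whole blood and -0.34 in plasma, and the single-spot value to -0.29 in heart and 1.88 in whole blood. No scaling gave -0.44, 0.073 and -1.07 for the many-spot probe in heart, whole blood and plasma, and 1.29 and -0.43 for the single-spot probe in whole blood and plasma. Quantile normalization within hearts and within blood arrays gave 2.33 for the many-spot probe in whole blood and -0.80 for the single-spot probe in heart, and normalization within each pair gave -0.80 for the latter. Heart against blood could not be set on those scales. Between tissues the 75th percentile gave, for the many-spot probe, heart minus whole blood 2.56 (control) and 2.38 (HF), heart minus plasma 2.44 and 3.25, and whole blood minus plasma 0.88 in HF, and for the single-spot probe 5.65 and 3.48 (heart minus whole blood), 5.39 (heart minus plasma, HF) and 1.91 (whole blood minus plasma, HF). No scaling gave 3.65 and 3.14, 4.59 (heart minus plasma, HF) and 0.30 (whole blood minus plasma, control) for the many-spot probe, and 6.74 and 4.24, 7.49 and 6.72, and 0.75 and 2.48 for the single-spot probe. Normexp on spot medians, used because the mean signal was not among the columns and chosen after seeing the data, gave 0.031 for the single-spot probe in plasma, 5.88 for control heart minus plasma and 0.075 for control whole blood minus plasma. The cause of these moves was not tested.

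After scaling to the single-spot probe, probes higher and lower in HF were 5965 and 1354 in heart and 241 and 9719 in whole blood. At 4-fold, scaled to the many-spot probe, they were 454 and 730 in heart, 312 and 3058 in whole blood, and 2420 and 1614 in plasma. With no detection filter they were 3844 and 14200, 4707 and 36220, and 16913 and 9728. For the glycolysis list, no filter gave 3 higher in whole blood and 4 higher and 4 lower in plasma, and the 75th percentile gave 1 and 3 in plasma. For the reference genes the 75th percentile gave 4 higher and 0 lower in heart and 0 higher in plasma, and no filter gave 2 lower in heart, 2 higher in whole blood and 10 lower in plasma. Scaling to spike-in probes was not run, since at most 4 of 22 were above background on an array. Within a tissue no paired analysis was possible because each group has 1 array. With HF and control paired over the 3 tissues, a fit chosen after seeing the data, the common difference was 0.78 and 0.55 for the 2 probes. Slide and condition coincide in whole blood and plasma.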
